A study of Mus musculus with 2 samples.

Results

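A set of 10 genes of the microtubule cytoskeleton was followed from progenitors to neurons in the newborn mouse telencephalon. They were the alpha tubulins Tuba1a and Tuba1b, the beta tubulins Tubb2a, Tubb2b, Tubb3 and Tubb5, and the regulators Dcx, Stmn1, Stmn2 and Map1b. They were chosen by name, are 10 of the 27998 genes in the count matrices, and all had UMIs in both libraries. The study compared C57BL/6 tissue labelled WT with tissue of genotype STINGf/f;Nestin-Cre (cKO) at P0, with 1 single-cell library for each. STING, encoded by Tmem173, is the adaptor of cytosolic DNA sensing, and Nestin-Cre acts in neural progenitors and what they give rise to, not in every cell of the tissue. The tissue is telencephalic by the labels and cerebral cortex in the study's methods, the labels do not say how many animals each library holds, and the study's text names floxed controls where the label says WT.

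Microtubules are hollow polymers of alpha and beta tubulin dimers. A dividing cell builds its spindle from them, and a neuron builds the cage around its moving nucleus, its axon and its dendrites. The tubulin isotypes come from separate genes and are nearly alike in their coding sequence. Dcx (doublecortin) binds the microtubule lattice in migrating neurons, Map1b binds microtubules in growing axons, and the stathmins Stmn1 and Stmn2 bind tubulin dimers and favour disassembly. Stmn1 acts in dividing cells and neurons, whereas Stmn2 is a membrane-bound form of neurons and their growth cones.

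The isotype pairs sit side by side in the genome. In GRCm38, Tuba1a lies at chr15:98949837-98953703 and Tuba1b at chr15:98931425-98934565, both on the minus strand. Tubb2a and Tubb2b are likewise neighbours, at chr13:34074274-34078007 and chr13:34126748-34130466 on the minus strand. Tubb3 lies on chromosome 8, Tubb5 on 17, Stmn1 on 4, Stmn2 on 3, Map1b on 13 and Dcx on X. A read is assigned to 1 gene of such a pair only where their sequences differ. The longest match between Tuba1a and Tuba1b transcripts ran over 1357 bases at 98.3% identity, and that between Tubb2a and Tubb2b over 1350 bases at 96.4% identity. Tuba1b matched Tuba1c at 99.4% identity over 1307 bases, and Tuba1c held 494 UMIs in WT and 398 in cKO. Tuba1a, Tuba1b and Tubb2b also matched copies that have no row in the matrices. So did Stmn1, with Gm11223 over 460 bases at 97.6% identity, and Tubb2a and Stmn2 over shorter stretches. Gm49450, which has no row either, overlaps Tuba1a by 3715 bases and Tuba1b by 2429 on their strand. Tubb3 is overlapped on its own strand by Gm20388, which had 0 UMIs in both libraries. Neither Tubb3, Tubb5, Dcx nor Map1b had a match of at least 95% identity over 100 bases in another gene's transcript.

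RefSeq promoters were at hand for 7 of the 10 genes, and 5 are shown because they set the alpha tubulins of neurons and of dividing cells, and 3 beta tubulins, side by side. Each is the 100 bases before the RefSeq start, 5′ to 3′ on the gene's strand in GRCm38.p6, with TATAA in capitals. The RefSeq starts are not always the ends of the gene spans above, which are GENCODE's, and those of Tuba1a, Tuba1b, Tubb3 and Tubb5 leave all or some of the window inside the span.
Tuba1a, chr15:98953502-98953601, minus strand: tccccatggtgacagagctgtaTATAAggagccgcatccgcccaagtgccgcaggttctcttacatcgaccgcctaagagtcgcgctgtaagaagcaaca
Tuba1b, chr15:98934391-98934490, minus strand: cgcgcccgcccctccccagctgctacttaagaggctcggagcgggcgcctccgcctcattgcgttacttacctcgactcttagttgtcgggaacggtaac
Tubb2a, chr13:34078009-34078108, minus strand: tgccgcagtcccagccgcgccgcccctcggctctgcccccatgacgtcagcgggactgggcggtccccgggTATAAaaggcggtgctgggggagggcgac
Tubb3, chr8:123411453-123411552, plus strand: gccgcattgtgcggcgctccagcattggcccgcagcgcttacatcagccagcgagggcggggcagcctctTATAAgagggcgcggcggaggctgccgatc
Tubb5, chr17:35838302-35838401, minus strand: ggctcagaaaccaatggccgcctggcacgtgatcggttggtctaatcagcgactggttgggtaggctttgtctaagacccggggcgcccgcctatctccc
TATAA, the core of the TATA box, stood on the gene strand of the 300-base promoter windows of Tuba1a, Tubb2a, Tubb3, Map1b and Dcx. It was in neither strand of the windows of Tuba1b and Tubb5. Of all 32851 RefSeq promoters of that length, 17.5% held it on the gene strand and 24.9% on either strand. It began 30 bases before the start in Tubb3 and 29 before it in Tubb2a, 78 before it in Tuba1a and 99 before it in Map1b. The E-box CANNTG, which reads alike on both strands, was in 5 of the 7, against 72.3% of all promoters. The GC box GGGCGG was on either strand in 6 of the 7, against 35.7% of all promoters. None of the motifs contains another, and a match is a description of these letters only.

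The libraries held 10715 barcodes in WT and 9198 in cKO, of which 6400 and 5784 were kept, with a median of 6474 and 7458.5 UMIs (unique molecular identifiers, each standing for 1 captured RNA). A barcode was shared by both libraries in 19 cases, 8 of them among the kept cells. Tmem173 had 111 UMIs in the kept WT cells and 15 in the cKO cells. The WT library held 9268 UMIs of 4 Y-linked genes and 10 of Xist, and the cKO library 6 and 67599, so sex and genotype cannot be told apart, and Dcx is X-linked. With 1 library per group no difference between them has a replicate check, and all intervals below are 95% intervals of counting error only. The UMIs are counted near the 3′ end and are not divided by gene length. Levels are compared within a gene. Where isotypes are set side by side, the shares are of counted UMIs, and reads assigned to no single gene are not in them.

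Cells were placed in 5 stages by the UMIs of marker lists that hold none of the 10 genes. Radial glia/astroglia (Slc1a3, Fabp7, Vim and others) numbered 486 in WT and 427 in cKO, and cycling progenitors (Mki67, Top2a and others, of any lineage) 529 and 316. Intermediate progenitors (Eomes, Neurog2 and others) numbered 214 and 334. Projection neurons (Neurod2, Neurod6, Tbr1 and others) were divided into newborn cells, 282 and 365, and maturing cells, 1945 and 1860, by whether genes of maturing neurons such as Syt1, Snap25, Camk2b and Mef2c reached at least 2 times the UMIs of Neurod1, Unc5d, Rnd2 and the like. Inhibitory neurons (Gad1, Gad2, Dlx genes) numbered 1362 and 1163. Left out were 76 WT and 158 cKO projection neurons between these stages. Also left out were 306 and 156 cells with markers of incompatible classes, and 556 and 627 of no class. The stages are ranges of marker UMIs, not cell types of their own. Of the cells in a gate, 39.3% of WT and 30.5% of cKO intermediate progenitors lay within 1 UMI of their minimum. Of maturing neurons, 2.93% and 2.85% lay within 1 UMI of another border, their split from newborn cells. Their distance from the minimum was not measured. The intermediate progenitor gate also held cells far into differentiation, with a median of 9 UMIs of the projection neuron list in WT and 10.5 in cKO, close to the 10 and 11 of newborn neurons. Their newborn list had a median of 10 UMIs in WT and 8 in cKO, against 9 and 8 in newborn neurons. Steps into this gate are thus not steps between progenitors alone. In maturing neurons the maturing list had a median of 34 UMIs per cell in WT and 27 in cKO, at a median depth of 9099 and 10023 UMIs.

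Together the 10 genes took 0.861% of all UMIs in WT radial glia and 4.33% in WT maturing projection neurons, and 0.769% and 4.44% in cKO. From radial glia to maturing neurons, 9 of the 10 were at least 1.5-fold higher in both libraries, against 21.9% of the 12607 genes with at least 50 UMIs in those stages. The exception was Tuba1b. None was at least 1.5-fold lower in both, against 27.6% of all genes. The 10 include known genes of neurons and were chosen with earlier results of these data known, so these counts describe the set and test nothing. The median of the 10 log2 ratios was 2.58 in WT and 2.75 in cKO. A cell thinned to 1000 UMIs held a UMI of a median of 4 of the 10 genes in radial glia and of 8 in maturing neurons in both libraries.

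**Figure D1:**
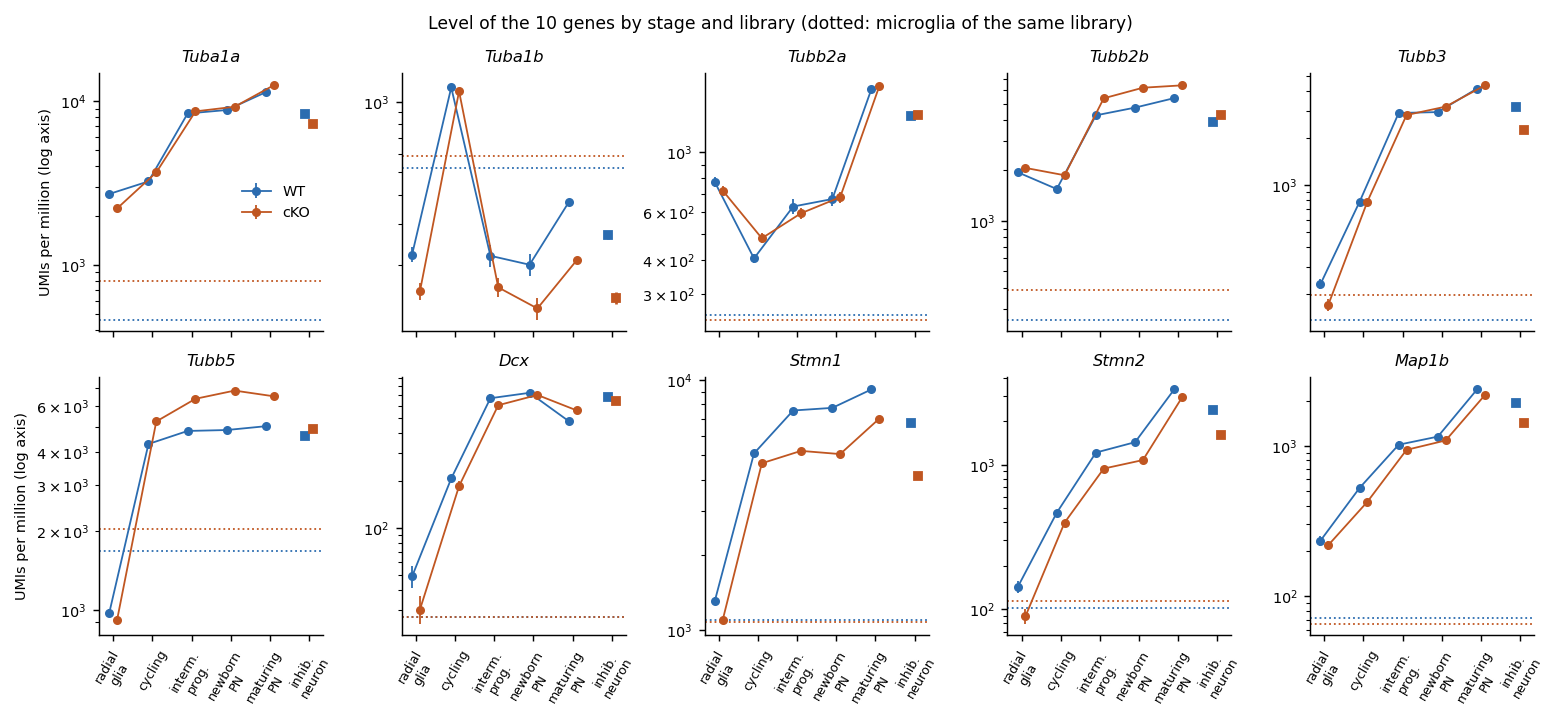
UMIs per 1000000 (CPM) of the 10 genes (log axis) in the 5 stages, joined by lines, and in inhibitory neurons (squares), for WT (blue) and cKO (orange), where bars are 95% Poisson intervals and dotted lines the level in microglia of the same library. Of the 10 genes Tuba1b alone was highest in cycling progenitors among the stages, at 1151 in WT and 1108 in cKO, and Dcx was highest in newborn neurons, at 726 and 704.

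Tuba1a, the main alpha tubulin of developing neurons, was higher at each stage than at the one before. Its level in WT was 2708 UMIs per 1000000 (CPM; 95% Poisson interval 2650 to 2768) in radial glia, 3233 in cycling progenitors, 8402 in intermediate progenitors, 8823 in newborn neurons and 11344 (11298 to 11390.3) in maturing neurons. The cKO library gave 2211, 3670, 8656, 9239 and 12501 in the same order. Both libraries thus had the same order of stages, with no overlap of the intervals of neighbouring stages, and the largest step lay between cycling and intermediate progenitors, of 2.60-fold in WT and 2.36-fold in cKO. From radial glia to maturing neurons the level was 4.19-fold higher in WT and 5.65-fold in cKO. Relative to the median, the spread over cells was narrower in neurons than in cycling progenitors. The 10th, 50th and 90th percentiles over WT cells were 65.3, 104 and 143 UMIs per 10000 in maturing neurons and 13.1, 27.7 and 68.8 in cycling progenitors.

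Tuba1b, a broadly used alpha tubulin, was highest in dividing cells. Its WT level was 222 CPM in radial glia, 1151 (1123 to 1180) in cycling progenitors, 219 in intermediate progenitors, 201 in newborn neurons and 371 (363 to 380) in maturing neurons. In cKO the levels were 154, 1108, 160, 130 and 209. Cycling progenitors were highest in both libraries, 5.19-fold over radial glia in WT and 7.19-fold in cKO, and maturing neurons came next. In both libraries the intervals of intermediate progenitors overlapped those of radial glia, and those of newborn neurons overlapped the next level up, intermediate progenitors in WT and radial glia in cKO. After thinning to 1000 UMIs, 57.2% (exact binomial 95% interval 52.9 to 61.5) of WT cycling progenitors had a Tuba1b UMI, against 18.0% of radial glia and 25.7% of maturing neurons. Before thinning these shares were 96.6%, 63.8% and 84.8%. Microglia, which arise outside the neural lineage, stood at 21.1% after thinning in WT and 23.3% in cKO, at a median depth of 9175 and 11915 UMIs, and at 521 and 584 CPM. Outside cycling progenitors, the CPM of Tuba1b in the other 4 stages and in inhibitory neurons was below that in microglia. The thinned share was above that of microglia only in WT maturing neurons. Microglia are not a blank for this gene, which took 53.0% of their alpha tubulin UMIs in WT and 42.5% in cKO. The comparison thus cannot say whether these stages express it, and no expression is read from these shares.

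Within the alpha pair the make-up differed between stages. Tuba1b made up 26.3% (25.7 to 26.8) of the Tuba1a and Tuba1b UMIs of WT cycling progenitors and 3.17% (3.10 to 3.24) of those of maturing neurons. In cKO these shares were 23.2% and 1.65%.

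**Figure D2:**
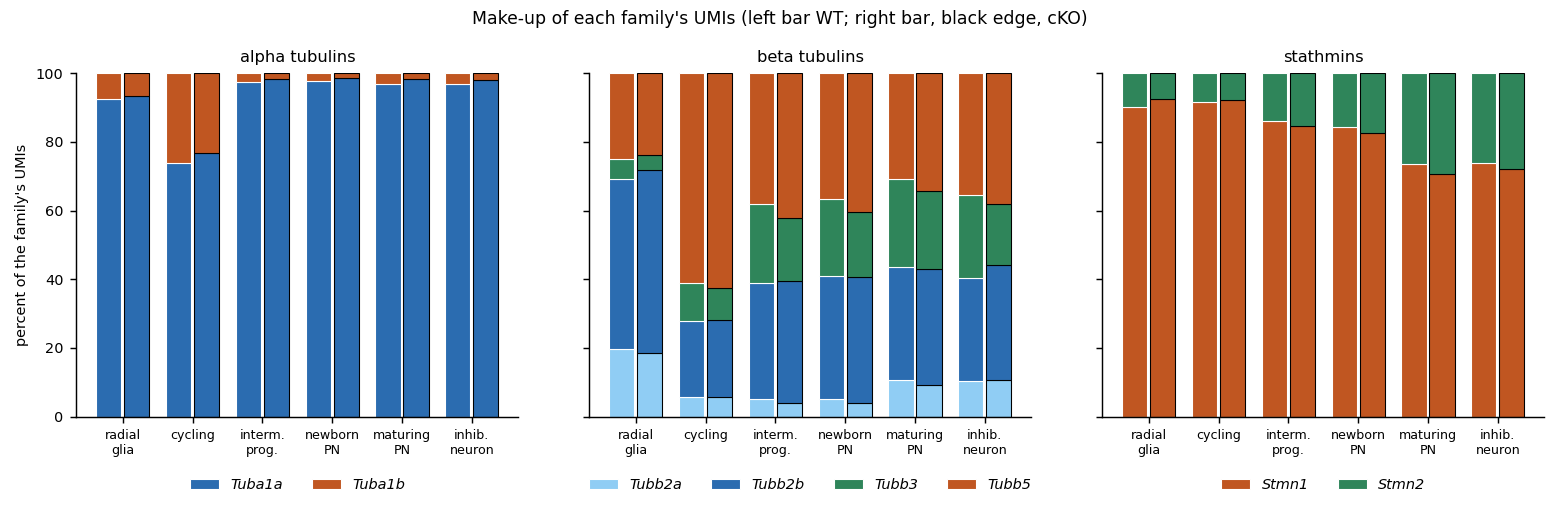
Percent of the UMIs of the alpha tubulins (Tuba1a, Tuba1b), beta tubulins (Tubb2a, Tubb2b, Tubb3, Tubb5) and stathmins (Stmn1, Stmn2) taken by each gene in the 5 stages and inhibitory neurons, with WT on the left and cKO (black edge) on the right of each pair of bars. Tubb2b led the beta tubulins in radial glia (49.6% in WT), Tubb5 in cycling progenitors (61.1%), and Tubb3 took 5.89% in radial glia and 25.5% in maturing neurons.

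Among the beta tubulins, Tubb3, the isotype recognised by the neuronal TUJ1 antibody, had the widest range. Its WT levels were 232 CPM in radial glia, 782 in cycling progenitors, 2896 in intermediate progenitors, 2934 in newborn neurons and 4146 in maturing neurons, and its cKO levels were 171, 785, 2809, 3180 and 4347. The order of the stages was the same in both libraries, and in WT the intervals of intermediate progenitors and newborn neurons overlapped. From radial glia to maturing neurons it was 17.9-fold higher in WT and 25.4-fold in cKO. Microglia stood at 138 CPM in WT and 200 in cKO, so the low end of this range is near the level of a cell type that should lack the gene. In WT, 20.3% of thinned radial glia had a Tubb3 UMI against 21.1% of microglia, which is read as background, whereas 43.2% of cycling progenitors and 95.9% of maturing neurons had one.

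Tubb5, a broadly used beta tubulin of dividing and postmitotic cells, was already near its neuronal level in cycling progenitors. Its WT levels in stage order were 980, 4294, 4813, 4852 and 5018 CPM, and its cKO levels 922, 5231, 6379, 6854 and 6520. The step from radial glia to cycling progenitors was 4.38-fold in WT and 5.67-fold in cKO, and in WT the intervals of intermediate progenitors and newborn neurons overlapped. From cycling progenitors to maturing neurons it was 1.17-fold and 1.25-fold. Newborn neurons were the highest stage in cKO and maturing neurons in WT. The step from newborn to maturing neurons was a log2 ratio of 0.05 in WT and -0.07 in cKO. Microglia, at 1678 and 2045 CPM, were above radial glia in both libraries.

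Tubb2b and Tubb2a, the neighbours on chromosome 13, were the beta tubulins with the smallest difference between radial glia and neurons. Tubb2b measured 1954, 1550, 4264, 4743 and 5403 CPM over the WT stages and 2072, 1873, 5390, 6232 and 6438 over the cKO stages. It was lowest in cycling progenitors, and all neighbours in the order of its levels had separate intervals in both libraries. Tubb2a measured 775, 406, 630, 671 and 1710 CPM in WT and 722, 481, 595, 682 and 1751 in cKO. It too was lowest in cycling progenitors, at 1.91-fold below radial glia in WT and by less in cKO, and its main step lay late, between newborn and maturing neurons, of 2.55-fold and 2.57-fold. In the late step it differed from Tubb2b, whose ratio there was 1.14-fold in WT and 1.03-fold in cKO. The Tubb2b share of beta tubulin UMIs was 49.6% in WT radial glia, 22.0% in cycling progenitors and 33.2% in maturing neurons, and Tubb2a took 19.7%, 5.77% and 10.5%.

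Dcx was the gene of the middle of the series. Its levels in WT were 48.8 CPM in radial glia, 206 in cycling progenitors, 671 (629 to 714) in intermediate progenitors, 726 (685 to 769) in newborn neurons and 479 (470 to 489) in maturing neurons. In cKO they were 30.0, 184, 605, 704 and 561. Newborn neurons were highest in both libraries, and the level then was 1.52-fold lower in WT and 1.25-fold lower in cKO maturing neurons. Among the thinned cells, 52.3% of WT intermediate progenitors, 54.6% of newborn neurons and 39.7% of maturing neurons had a Dcx UMI, and the unthinned shares were 97.2%, 96.8% and 97.2%. Only 3.51% of WT and 6.67% of cKO thinned microglia had one, and 4.77% and 3.82% of radial glia, which is read as background for this gene. Inhibitory neurons were close to newborn projection neurons in Dcx, at 680.5 and 646 CPM.

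Of the stathmins, Stmn1 was abundant in dividing cells and in neurons, while Stmn2 marked the late stages. Stmn1 stood at 1310, 5091, 7558, 7744 and 9181 CPM over the WT stages and at 1096, 4649, 5210, 5059 and 7017 over the cKO stages. The intervals of intermediate progenitors and newborn neurons overlapped in both libraries. Cycling progenitors were 3.89-fold over radial glia in WT and 4.24-fold in cKO. Radial glia were close to microglia, at 1096 CPM in WT and 1079 in cKO. Stmn2 stood at 142, 465, 1214, 1432 and 3321 CPM in WT and at 89.4, 398, 940.5, 1077 and 2925 in cKO. Most cycling cells lay far below their pooled level, with a WT median of 1.20 and a 90th percentile of 23.4 UMIs per 10000, against a median of 26.7 in maturing neurons. From radial glia to maturing neurons Stmn2 was 23.4-fold higher in WT and 32.7-fold in cKO, the largest ratio of the 10 genes in each library, over radial glia levels close to the 102 and 114 CPM of microglia. Stmn2 took 9.78% of the stathmin UMIs of WT radial glia, 8.38% of those of cycling progenitors and 26.6% of those of maturing neurons.

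Map1b followed Stmn2. Its WT levels were 234, 525, 1018, 1153 and 2373 CPM and its cKO levels 218, 425, 941, 1087 and 2177, with the same order of stages. From radial glia to maturing neurons it was 10.2-fold higher in WT and 9.97-fold in cKO, and microglia lay lower, at 71.6 and 65.7 CPM. Over the 10 points of 5 stages and 2 libraries, the log2 levels (CPM plus a pseudocount of 10) of Map1b and Stmn2 had a Pearson r of 0.992, the highest of the 45 pairs of the 10 genes. The lowest was -0.615, between Tuba1b and Tubb2b. These points share libraries and marker gates, and r describes the 10 points only.

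**Figure D3:**
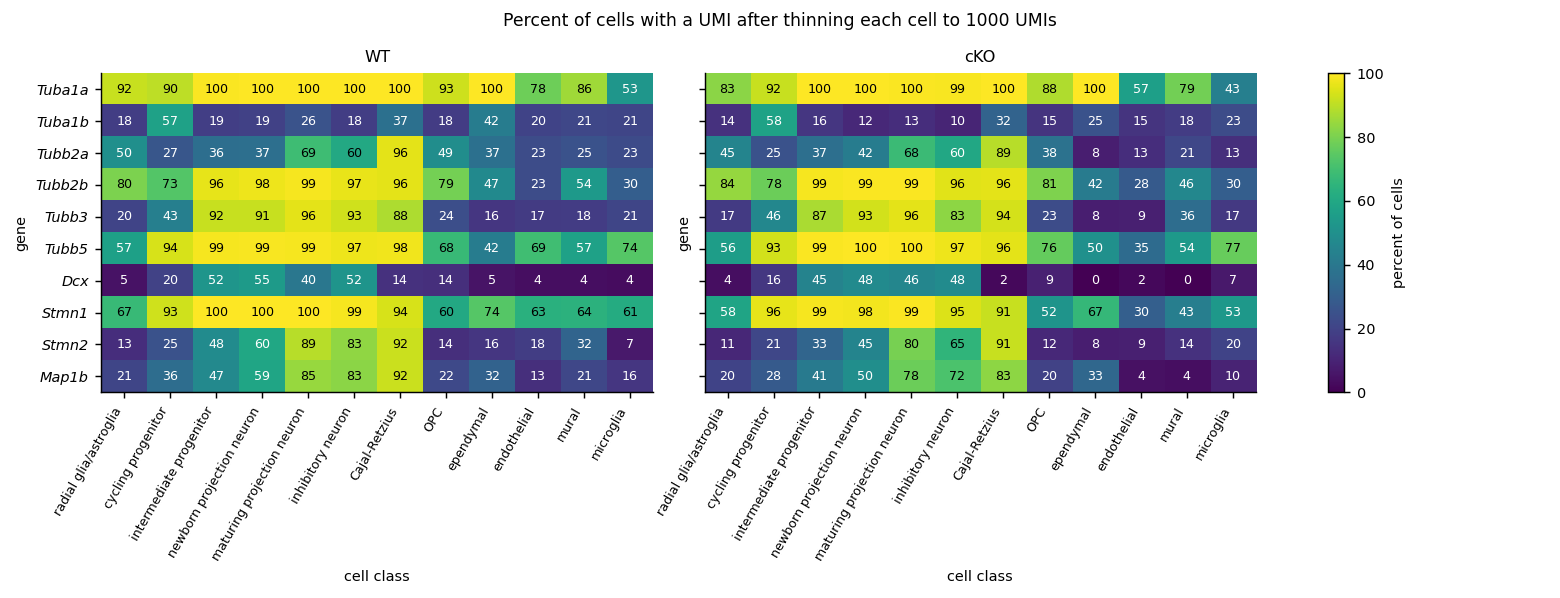
Percent of cells with at least 1 UMI of each gene after thinning every cell to 1000 UMIs, by cell class (columns) in WT (left) and cKO (right). Tuba1b was detected in 57.2% of WT and 57.6% of cKO cycling progenitors and in 25.7% and 13.1% of maturing neurons, and Dcx in at most 54.6% of the cells of any class.

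The genes whose levels ran most like those of the 10 over the same points, among 11181 genes with at least 200 UMIs, differed by member. For Tuba1a they were Mllt11, Ywhag and Ptms (r of 0.998, 0.995 and 0.993). For Tuba1b they were H2afx, Sae1 and Cit (0.981, 0.981 and 0.979), and Cit encodes citron kinase of cytokinesis. Tubb3 ran with Basp1, Nrep and Add2 (0.995, 0.994 and 0.994), and Basp1 is a growth cone protein. Dcx ran with Nnat, Gdap1l1 and Chn1 (0.996, 0.990 and 0.985). For Stmn2 they were Gng2, its relative Stmn3 and Fnbp1l (0.995, 0.995 and 0.995), and for Map1b Stmn2, Pgm2l1 and Crmp1 (0.992, 0.992 and 0.990). Stmn1 was nearest to Ttc9b, Nans and Tmsb4x (0.982, 0.981 and 0.979). Tubb5 was nearest to Aes, Rnf187 and Txnl4a (0.984, 0.983 and 0.978), Tubb2b to Fam171a2, Klf7 and Ncs1 (0.995, 0.993 and 0.990), and Tubb2a to Arpc4, Ccdc149 and Kcnip4 (0.977, 0.972 and 0.966).

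The comparison of cKO with WT asks whether the loss of STING in the neural lineage goes with other levels of these genes. When the cells were clustered without the 10 genes, neurons of the 2 libraries fell largely into separate clusters. A single library supplied 95% or more of 5 of the 7 maturing, 2 of the 3 newborn and 4 of the 7 inhibitory neuron clusters, the largest maturing ones holding 1057 WT and 3 cKO cells, and 2 and 738, whereas no cluster of cycling progenitors or radial glia was so divided. Its part in the ratios below was not tested. In maturing projection neurons, the stage with the most UMIs, 1 of the 10 was at least 1.5-fold lower in cKO, against 29.3% of 11816 genes, and 0 were 1.5-fold higher, against 12.1%. The median log2 ratio of the 10 was 0.05, and that of all genes was -0.17, but a stricter cell filter, which kept 166 WT and 229 cKO cells, gave -0.23 and 0.0032. The gene past the fold was Tuba1b, at 371 CPM in WT and 209 in cKO (log2 ratio -0.83, 95% interval -0.88 to -0.78), and its log2 ratio was -1.54 under the stricter cell filter. Relative to the median gene its log2 ratio was -0.66, and both levels lay below those of microglia of the same library, which were 521 and 584 CPM. Stmn1 was lower by less, at 9181 against 7017 CPM (-0.39, -0.40 to -0.38), or -0.22 relative to the median gene. Tubb5 was higher, at 5018 against 6520 CPM (0.38, 0.37 to 0.39), as was Tubb2b, at 5403 against 6438 CPM (0.25, 0.24 to 0.26). The other members lay between -0.18 (Stmn2) and 0.23 (Dcx). Stmn2 and Map1b, at -0.18 and -0.12 by CPM, came to 0.0012 and 0.06 when the libraries were scaled by TMM, which moved the median of all genes to 0.02, and to -0.77 and -0.33 under the stricter cell filter, so no direction is given for them. The stricter filter also put Stmn1 (-0.64) and Tubb2a (-0.68) past 1.5-fold lower and Dcx (0.69) past it higher. That made 4 lower and 1 higher, against 23.5% and 21.8% of all genes under the same filter. Counting error is small here, and the intervals say nothing of how animals vary. The fewer maturing-list UMIs per maturing neuron in cKO, given above, and a median mitochondrial share of 6.55% in WT and 7.45% in cKO, differed along with these ratios, and their part in the result was not tested.

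**Figure D4:**
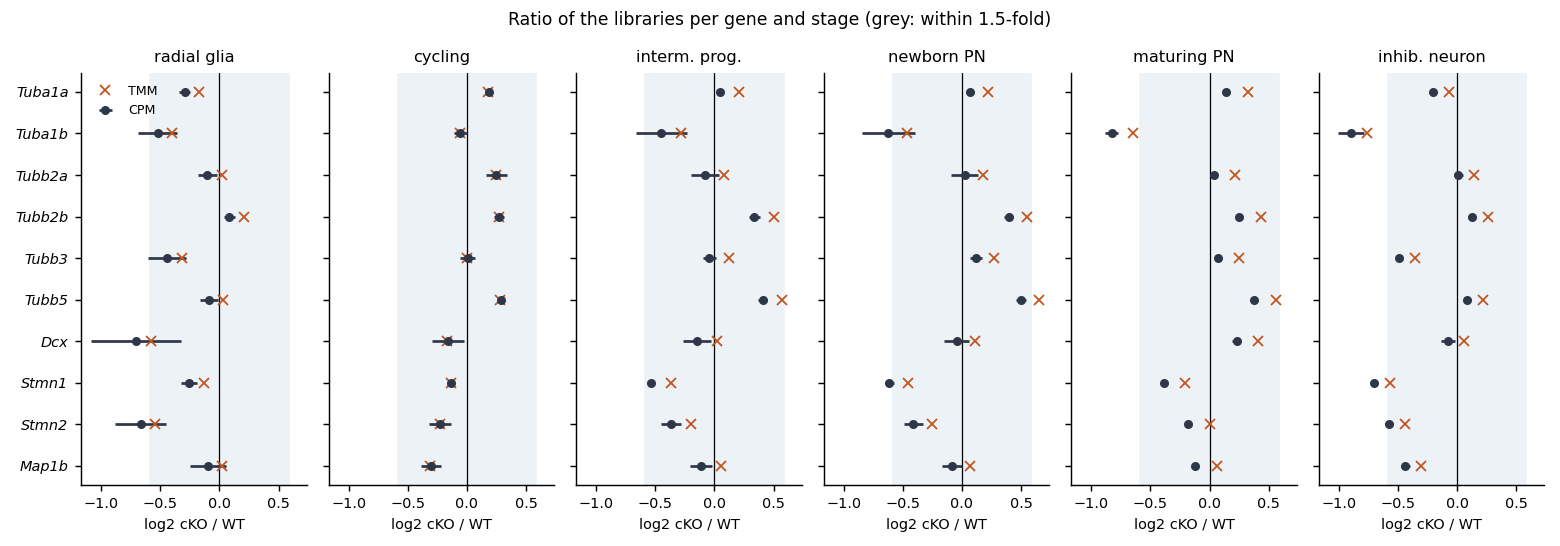
Log2 ratio of cKO over WT for each gene in the 5 stages and in inhibitory neurons, from CPM with 95% intervals of counting error (circles) and after scaling by TMM, a trimmed mean of gene ratios (crosses), where the grey band is within 1.5-fold. Tuba1b and Stmn1 lie left of 0 and Tubb2b right of 0 in all 6 panels under both scalings.

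Newborn neurons held a median of 10 UMIs of the maturing list in WT and 6 in cKO, at a median depth of 5368.5 and 6569 UMIs, and the part of this in their ratios was not tested. In newborn projection neurons Stmn1 and Tuba1b were at least 1.5-fold lower in cKO, 2 of 10 against 22.2% of 7541 genes, and 0 were higher, against 16.3%. Stmn1 stood at 7744 CPM in WT and 5059 in cKO (log2 ratio -0.61, -0.65 to -0.58), and Tuba1b at 201 and 130 (-0.62, -0.85 to -0.40). Tubb5 was the highest ratio of the 10, at 4852 and 6854 CPM (0.50, 0.46 to 0.54), followed by Tubb2b (0.39, 0.35 to 0.43). Under TMM scaling Stmn1 (-0.46) and Tuba1b (-0.47) were within 1.5-fold and Tubb5 (0.65) was past it. So 0 were lower and 1 higher, against 1277 and 1742 of the 7541 genes under that scaling. Intermediate progenitors had 0 members past the fold in either direction, against 21.7% of 7595 genes lower and 17.0% higher, with Stmn1 lowest (-0.54) and Tubb5 highest (0.41). Gates on cells thinned to 2000 UMIs kept 42 WT and 34 cKO cells. With them Map1b (-1.19) and Tuba1b (-1.18) were lower and Tubb2b (0.67) higher, against 343 and 319 of 2040 genes. By clusters 2 were lower, against 1037 of 5883 genes. Cycling progenitors likewise had 0, against 19.4% of 10105 genes lower and 14.2% higher, and all 10 ratios lay between -0.31 (Map1b) and 0.28 (Tubb5). There too 2 were lower with gates on thinned cells, Stmn2 (-1.06) and Map1b (-0.77), against 1861 of 9374 genes. By clusters 2 were lower, against 1825 of 9553 genes. In cycling progenitors, where it was highest, Tuba1b was at 1151 and 1108 CPM (-0.06, -0.11 to 0.00). Its ratio was 0.04 with gates on thinned cells, so no direction is given. Cycling cells held a median of 3 UMIs of the inhibitory neuron list in WT and 1 in cKO, and 4 and 2 of the maturing list. Of the intermediate progenitor list they held 4 and 5, at a median depth of 9721 and 12134 UMIs. The part of these differences in the ratios of cycling cells was not tested.

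In radial glia/astroglia 2 of 10 were lower past the fold, against 20.7% of 9327 genes, and 0 higher, against 12.1%. They were Dcx (48.8 and 30.0 CPM, from 149 UMIs in WT and fewer in cKO) and Stmn2 (142 and 89.4 CPM, from 433 and 301 UMIs), both at or near the level of microglia. Under TMM scaling they came to -0.58 and -0.54, within 1.5-fold, and 0 were also lower with doublets kept or by clusters. These shares are near those of all genes, and no count of members between libraries is read as particular to them. Inhibitory neurons had 2 lower, Tuba1b (-0.90) and Stmn1 (-0.70), against 25.8% of 10415 genes, and 0 higher, against 14.6%. Under TMM scaling Stmn1 came to -0.57, within 1.5-fold, which left 1 lower. With the stricter cell filter, with gates on thinned cells or by the mean of each cell's CPM, 4 were lower. Over the alternatives the share of all genes lower ran from 19.5%, under the stricter filter, to 35.5%. In the main setting Stmn2 (-0.58), Tubb3 (-0.49) and Map1b (-0.44) were also lower in cKO inhibitory neurons. In maturing projection neurons the same 3 genes lay between -0.18 and 0.07, though the stricter cell filter put Stmn2 there at -0.77. No replicate allows a test of that contrast. Inhibitory neurons held a median of 6 UMIs of the maturing list in WT and 5 in cKO, at a median depth of 4390 and 5175 UMIs. Their median mitochondrial share was 6.35% and 6.90%. The part of these differences in the ratios of inhibitory neurons was not tested.

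Across the 5 stages and inhibitory neurons, Tuba1b, Stmn1, Stmn2 and Map1b had a ratio below 0 in all 6 classes, against 27.1% of 6940 genes, and Tubb2b above 0 in all 6, against 27.9%. Under TMM scaling this held for Tuba1b, Stmn1 and Tubb2b, whereas Stmn2 was above 0 in 1 class and Map1b in 4. Of these 3, Tubb2b came to -0.05 in inhibitory neurons with the stricter cell filter, and Tuba1b to 0.04 in cycling progenitors with gates on cells thinned to 2000 UMIs. Tubb5 was above 0 in 5 classes by CPM and 6 by TMM. The Stmn1 difference was seen across the range of cells. In newborn neurons the 10th, 50th and 90th percentiles were 56.5, 76.9 and 103 UMIs per 10000 in WT and 30.1, 49.1 and 66.0 in cKO. Those of Tubb5 in the same cells were 32.2, 47.5 and 64.9 in WT and 46.5, 66.8 and 86.7 in cKO. Cells of 1 library are not replicates, and these percentiles describe the 2 libraries.

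In a balance between isotypes, from summed UMIs, any factor applied to a whole library cancels. In maturing neurons Tubb5 took 30.8% (30.7 to 31.0) of the beta tubulin UMIs in WT and 34.2% (34.1 to 34.4) in cKO, and Tubb3 25.5% and 22.8%. The Tubb3 level there was 4146 CPM in WT and 4347 in cKO, so in the main setting its lower share did not go with a lower CPM. Under the stricter cell filter the log2 ratio of its CPM was -0.07. In inhibitory neurons Tubb3 took 24.3% (24.0 to 24.6) in WT and 17.7% (17.4 to 17.9) in cKO.

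A list of 56 other tubulins and microtubule genes sets these values in context. From radial glia to maturing neurons 27 of the 53 with enough UMIs were at least 1.5-fold higher in both libraries and 5 were lower, against 21.9% and 27.6% of all genes, with a median log2 ratio of 0.73 in WT and 0.78 in cKO. Both other stathmins were higher. Stmn3 had a log2 ratio of 3.15 in WT and 3.52 in cKO, and Stmn4 of 4.23 and 5.42. Of 9 genes for tubulin modification 8 were higher, among them Agtpbp1, a deglutamylase (2.58 and 2.91), and Atat1, the alpha tubulin acetyltransferase (1.54 and 2.17). Of 9 structural microtubule-associated proteins 5 were higher, with Mapt, which encodes tau, at 3.80 and 4.15, and 1, Map7, was lower. Among 11 plus-end and minus-end proteins 6 were higher, such as Mapre2 (1.65 and 1.89), and 1, Ckap5, was lower (-1.11 and -1.77), while Mapre1, which encodes EB1, was at 0.03 and 0.58. The genes lower in neurons also included Tuba1c (-3.52 and -2.36), Nde1, a partner of dynein at the spindle (-5.36 and -4.97), and Katna1, a severing enzyme (-1.01 and -1.21). Dclk1, a relative of Dcx, was at -0.41 and -0.48.

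Between libraries, 8 of the 51 listed genes measured in maturing neurons were at least 1.5-fold lower in cKO and 1 higher, against 29.3% and 12.1% of all genes, with a median log2 ratio of -0.13. Both counts lie below the shares of all genes. The lowest were Tbcc, a tubulin folding cofactor, at 33.2 CPM in WT and 5.54 in cKO (-2.58), Tubd1 (-1.96, from 57 and 16 UMIs), Katnal1 (-1.33) and Tubg1, the gamma tubulin of microtubule nucleation (-1.23). The 1 higher was Tbce, another folding cofactor, at 54.0 and 84.3 CPM (0.64). Stmn4 was at -0.91, Stmn3 at -0.18 and Mapre1 at 0.56.

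**Figure D5:**
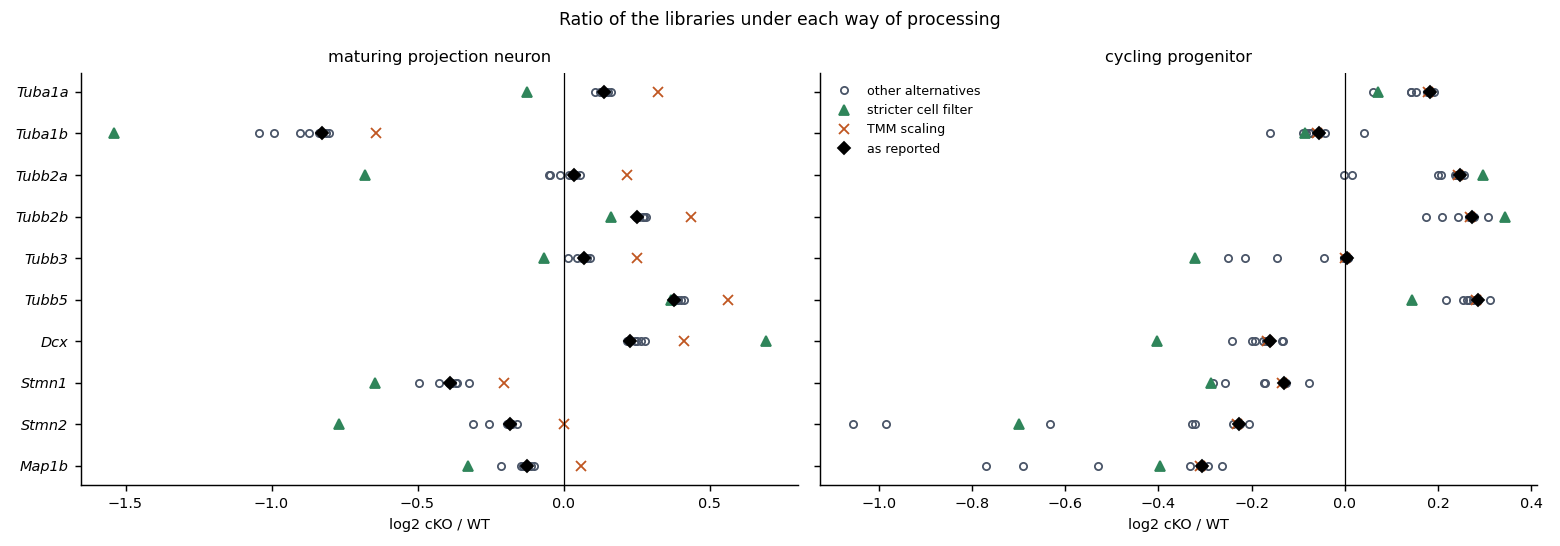
Log2 ratio of cKO over WT for each gene in maturing projection neurons (left) and cycling progenitors (right) as reported (diamonds), under a stricter cell filter (triangles), TMM scaling (crosses) and the other alternatives (circles). In maturing neurons Tuba1b and Stmn1 stay below 0 and Tubb2b, Tubb5 and Dcx above 0 throughout, while Tubb2a runs from -0.68 to 0.22.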

How the data were processed

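Telencephalic cells of 1 WT and 1 cKO library at P0 were profiled on the 10x Chromium platform. The deposited counts are whole UMIs per gene and barcode made by the authors; the submitters' processing notes name Cell Ranger 2, STAR, Seurat and mm9, and the matrix headers give software version 3.0.1. The deposited dense tables, a pooled matrix and a table of the authors' own marker comparisons (fold changes and p-values) were not used. The study gives a rounded number of cells that passed quality control, and its filter is not given in the sources used here.

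Barcodes with at least 500 genes and at most 10% mitochondrial UMIs were kept (6766 and 6080). Scrublet (scanpy 1.11.5) by its own threshold marked 131 WT and 0 cKO cells, so the highest scores were removed at 0.8% per 1000 cells instead (366 and 296). A stage needed a minimum of UMIs over at least 2 genes of its marker list, with 8 for radial glia/astroglia, 4 for cycling cells, 6 for intermediate progenitors and 4 for projection and for inhibitory neurons. UMIs were summed per stage and library and given per 1000000 (CPM) with exact Poisson intervals; ratios have exact conditional binomial intervals. A gene was tested on at least 50 UMIs and called past 1.5-fold, with no p-value. Thinned cells under 1000 UMIs were left out (2 of 1945 WT and 1 of 1860 cKO maturing neurons, and 1 microglial cell in each library). TMM factors came from edgeR 4.0.16 and matches of transcripts from BLAST 2.17.0+ on GENCODE M21. Intervals and calls were also run on Poisson counts simulated from the summed UMIs. Such draws follow the model of the intervals and leave out differences between cells and animals, so they check the calculation only. Alternatives were other cell filters, gates, scalings and thresholds, and 30 clusters made without these genes, of which 11 held at least 95% of their cells from 1 library.

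The 10 genes and all lists were chosen with earlier results of these data known. Named besides the 10 were listed microtubule genes past 1.5-fold in maturing neurons with separate intervals (the 4 lowest and up to 4 highest), some of the 3 of each subgroup with the most UMIs, and the 3 genes most like each member; other listed genes named were chosen after their values were seen.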

Additional observations from a re-analysis of the deposited data

How the results depend on the processing

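The count of members higher in maturing neurons than in radial glia was 9, against 2767 of 12607 genes. Under TMM scaling, where Tuba1b passed too, it was 10, against 3539 genes. The sizes of single ratios from radial glia to maturing neurons did depend on the processing. Over the genes and alternatives, 41 of these ratios were marked as moved and 59 as the same in WT. In cKO 49 were marked as moved and 51 as the same. Counts between libraries were less stable than the count of 9. In radial glia 2 members were lower in cKO; 1 was without the cell filter, with the stricter one (at least 1000 genes and at most 5% mitochondrial UMIs) and with gates on cells thinned to 2000 UMIs, 0 with doublets kept, by clusters, under TMM or at 2-fold, and 3 with stricter gates. In cycling progenitors the count went from 0 to 1 with the stricter filter or the mean of each cell's CPM, and to 2 with thinned gates or clusters. In intermediate progenitors it went from 0 to 2 with thinned gates or clusters, and thinned gates brought 1 higher. In newborn neurons 2 became 1 without the filter or with stricter gates, 0 by clusters, under TMM or at 2-fold, and 3 by the mean of each cell's CPM, and TMM brought 1 higher. In inhibitory neurons 2 became 4 with the stricter filter, thinned gates or the mean of each cell's CPM, 3 with stricter gates, 1 under TMM and 0 at 2-fold. In maturing neurons 1 became 4 lower and 1 higher with the stricter filter, and 0 at 2-fold. Any gene past 2-fold is also past 1.5-fold, so counts of members and of all genes can only stay or fall at 2-fold. Genes other than the members were still lower at 2-fold in radial glia, newborn neurons and maturing neurons, though they were a minority of all genes. The counts of 0 members at 2-fold are thus not read as particular to them. The share of all genes higher ran from 15.6% to 24.5% in intermediate progenitors over the alternatives at 1.5-fold. It ran from 13.9% to 23.1% in newborn neurons and from 11.6% to 21.8% in maturing neurons. Over the alternatives at 1.5-fold, the share of all genes lower ran from 16.6% to 31.6% in radial glia, 17.8% to 27.6% in cycling progenitors, 13.5% to 34.4% in intermediate progenitors, 13.7% to 36.2% in newborn, 22.7% to 35.5% in maturing and 19.5% to 35.5% in inhibitory neurons, and with the stricter filter it was 23.5% lower and 21.8% higher in maturing neurons. The median log2 ratio in maturing neurons, 0.05, was -0.23 with the stricter filter (0.0032 for all genes), which kept 166 WT and 229 cKO cells, 0.0022 with thinned gates, 0.0091 by clusters, 0.24 under TMM, 0.074 without mitochondrial, ribosomal protein and haemoglobin genes and 0.00076 as the mean of cells. The median of all genes there was -0.17 in the main setting, -0.13 with thinned gates, -0.20 by clusters and 0.018 under TMM. It was -0.14 without the same genes and -0.16 as the mean of cells. The median of the members in cycling progenitors, -0.03, was -0.19, -0.15 and -0.14 with the stricter filter, clusters and the mean of cells. All genes there stood at 0.03, 0.0018 and -0.01. The cause was not tested. Of single ratios, those of Tuba1b and Stmn1 in neurons and of Tubb2b and Tubb5 in newborn and maturing neurons kept their sign under all 10 alternatives that give one. No paired analysis was possible because each group has 1 library.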

Other observations

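Cells outside the projection neuron series carried these genes at levels of their own. Cajal-Retzius cells, the early-born reelin neurons of the cortical surface (49 in WT and 47 in cKO), had the highest Tubb2a level of all 12 classes, at 2548 CPM in WT and 2887 in cKO. Their Dcx stood at 106 and 68.5 CPM, against 479 and 561 in maturing projection neurons, while their Stmn2, at 3242 and 3319 CPM, was at the level of those neurons. Their Tuba1b, at 792 and 706 CPM, was second only to cycling progenitors. Oligodendrocyte precursor cells (377 and 207) resembled radial glia, with Tuba1a at 3025 and 2788 CPM and Tubb3 at 270 and 252, but held more Dcx, at 123 and 93.6 CPM against 48.8 and 30.0. Endothelial cells (104 and 48) had Tubb5 at 1485 and 1061 CPM and Tubb2b at only 157 and 167. The groups are small, and counting intervals do not cover differences between animals.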
